A study of Mus musculus with 15 samples.

Results

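The early and sustained induced genes are 54 genes of the 43432 in the table whose counts were already high 1 day after Neurog1 or Neurog3 was switched on in mouse fibroblasts and were still at a similar level at day 13. They were chosen by a rule on group means of CPM, the counts of a gene per 1000000 counts in its library. With each factor the day-1 mean had to reach 5 CPM and 4 times the control mean plus 0.5 CPM, and the day-13 mean had to lie between 0.5 and 2 times the day-1 mean of the same factor. A set of 9 genes was left out by name, of which 2, Hes6 and Dll1, met both conditions. Leaving those names aside, 185 genes met the day-1 condition. Of these, 54 stayed in the range with both factors, 68 were under 0.5 with both, 44 were over 2 with both, and 19 left the range with 1 factor or on opposite sides. The rule used the controls, day 1 and day 13, so differences among these for the 54 members are given as descriptions without a test. The difference between the factors at each day was not used and was tested.

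The cells were mouse embryonic fibroblasts (MEF), a mixed primary culture grown in DMEM with 10% FBS and transduced with lentivirus that carried Ngn1 or Ngn3, the labels' names for Neurog1 and Neurog3. Doxycycline switched the factors on, and a neuronal medium of DMEM/F12, GlutaMAX, N2 and B27 replaced the fibroblast medium from day 2. The 5 groups of 3 libraries, lettered a to c, were control fibroblasts and the fibroblasts with Neurog1 or with Neurog3, each at day 1 (24 h) and at day 13. The labels of the control group say no more than that, and its virus, doxycycline, medium and age in culture were not given in the sources used here. Day 1 and day 13 also differ in medium, so time and medium cannot be told apart. The labels do not say whether replicate letters mark separate cultures, so p-values measure the spread between these libraries, which may be technical.

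Neurog1 and Neurog3 are proneural transcription factors of the basic helix-loop-helix (bHLH) class. They pair with E proteins, bind the E-box CANNTG and switch on Notch ligands and a cascade of further neuronal factors. Id proteins lack the basic, DNA-binding region and hold E proteins away from such factors, while ETO-family co-repressors such as Cbfa2t3 are recruited to bHLH complexes. In development Neurog1 acts in cranial sensory neurons and Neurog3 in the endocrine cells of the pancreas and gut.

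The members shared little by place: all 54 are annotated as protein coding, they lie on 19 chromosomes with at most 7 on any of them (chromosome 11), and a pair, Apol9a and Apol9b, lies within 1000000 bases of each other. Apol9a and Apol9b are near-identical copies, so the split of reads between them is uncertain. Members were long genes, with a median annotated exon length of 5920 bases against 4047 for the genes tested and a median span of 38990 bases against 20510. The rule has a floor in CPM, which is not corrected for length, and the genes tested were not limited to protein-coding genes. The part of either in the difference in length was not tested.

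The promoters of 41 of the 54 members matched RefSeq windows (GRCm38.p6, 250 bases before to 50 after each start, 63 windows of 300 bases). Kif21b, Fam78b, Adamts4, Rnf112, Epn3, Notum, Abcg1, Pcdh1, Syt7, Fjx1, Gm11549, Rgma and Pknox2 had no match. An E-box of any kind (CANNTG, which reads the same on both strands in its fixed letters) was found in 74.6% of the member windows, in 64.6% of the 15077 windows of tested genes and in 72.3% of all 32851 windows. The E-box CAGATG, searched with its reverse complement CATCTG, was found in 28.6% of the member windows, 12.1% of the windows of tested genes and 17.2% of all windows. The palindromic E-box CAGCTG was found in 30.2%, 16.1% and 16.3% in the same order. Both are kinds of CANNTG, and several windows of a gene overlap. Counted by gene, 14 of 41 members (34.1%) held CAGATG or CATCTG, against 19.2% of all 27025 genes with a window, and 17 (41.5%) held CAGCTG, against 18.3%. A gene was counted if any of its windows held the E-box, and members had more windows per gene (63 for 41) than all genes (32851 for 27025). The near-identical Apol9a and Apol9b were each counted for both E-boxes. No share by gene was made for the tested genes. These shares are descriptions without a test, and a match in letters is not a binding site.

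The stretches before the starts of 3 members are shown because these 3 belong to the proneural list described below and because they differ in E-boxes. Bases inside the annotated gene were left out, the sequence runs 5′ to 3′ on the minus strand of GRCm38.p6, and every CANNTG is in capitals. The Cbfa2t3 stretch is chr8:122699110-122699359, the Atoh8 stretch is chr6:72235578-72235827 and the Btbd17 stretch is chr11:114795946-114796142.
Cbfa2t3: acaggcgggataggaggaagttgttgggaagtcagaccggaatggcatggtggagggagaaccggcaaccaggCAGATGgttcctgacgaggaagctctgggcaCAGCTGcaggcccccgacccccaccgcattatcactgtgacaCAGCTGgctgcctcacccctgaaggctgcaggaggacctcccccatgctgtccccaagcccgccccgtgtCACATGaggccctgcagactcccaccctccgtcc
Atoh8: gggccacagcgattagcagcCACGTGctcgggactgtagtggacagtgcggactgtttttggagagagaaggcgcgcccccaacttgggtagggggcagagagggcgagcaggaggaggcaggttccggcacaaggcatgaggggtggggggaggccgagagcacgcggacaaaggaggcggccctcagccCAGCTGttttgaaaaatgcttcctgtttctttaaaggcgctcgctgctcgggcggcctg
Btbd17: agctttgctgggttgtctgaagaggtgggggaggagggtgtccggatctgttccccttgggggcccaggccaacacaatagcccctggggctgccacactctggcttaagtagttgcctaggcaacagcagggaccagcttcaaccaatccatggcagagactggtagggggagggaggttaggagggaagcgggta
The 250 bases of Cbfa2t3 held 4 E-boxes, a CAGATG, a pair of CAGCTG and a CACATG. Atoh8 held a CACGTG and a CAGCTG, and the 197 bases of Btbd17 held none.

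**Figure D1:**
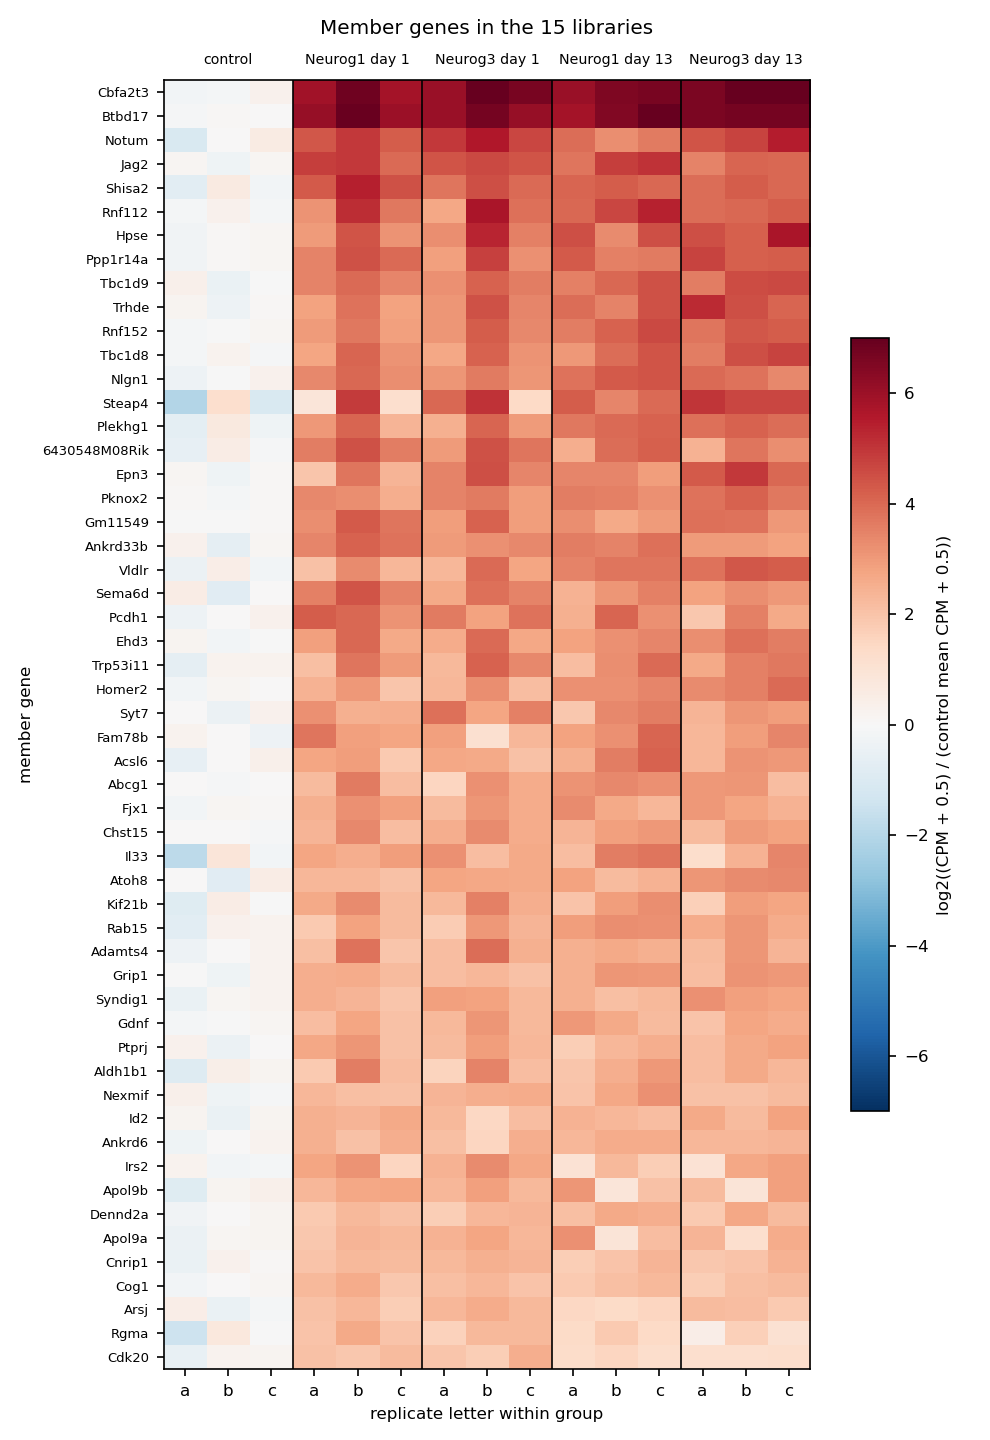
Each line is 1 of the 54 members and each column 1 of the 15 libraries, and the colour is log2 of CPM plus 0.5 over the control mean plus 0.5, sorted by the mean over the 12 factor libraries. Cbfa2t3 and Btbd17 stand at the top, and the columns of letter b at day 1 are the darkest of their groups for most members.

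In the factor libraries the members ran well above the controls at both days, by the rule that chose them. The median fold over the control mean plus 0.5 CPM was 6.98 with Neurog1 and 7.79 with Neurog3 at day 1, and 9.05 and 7.30 at day 13. The rule chose on these same libraries, which favours a lack of overlap with the controls, and no share of all genes is given. For 52 of the 54 members every factor library lay above every control library. The exceptions were Rgma, whose control b at 18.8 CPM exceeded Neurog3 day-13 library a at 15.9 CPM, and Steap4, whose control b at 4.23 CPM exceeded 2 of the day-1 Neurog1 libraries. Together the members summed to 387.5, 398.97 and 438 CPM in controls a to c. These sums were close to each other although single members such as Rgma and Steap4 differed between controls, and every factor library, at 2492 CPM or more, was far above them. In a bulk library, fewer cells of a type and less RNA per cell cannot be told apart, so none of these levels says how many cells responded.

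The control level differed between members. In 13 the control mean was under 1 CPM, and in 10 it was over 10 CPM. Per kilobase of exon, averaged over the 4 factor groups, Id2 stood highest at 222 CPM, followed by Ppp1r14a at 71.1, Atoh8 at 49.3 and Vldlr at 29.5, while Nlgn1 was lowest at 0.589.

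Among the transcriptional regulators, Id2 encodes an inhibitor of bHLH factors. Id2 (ENSMUSG00000020644, chromosome 12, 25093799 to 25097140, minus strand, mm10) had 120.3, 74.9 and 118 CPM in the controls, then 579, 541 and 669 with Neurog1 and 508, 291 and 465 with Neurog3 at day 1. At day 13 it had 561, 516 and 471 CPM with Neurog1 and 653, 489.7 and 742 with Neurog3. No factor library overlapped the controls, and at day 1 each Neurog3 library was below each Neurog1 library. Id2 sat nearest to the fold limit of the rule, at 4.01 times the control mean plus 0.5 with Neurog3, next to Arsj at 4.07. Just outside were Il6ra at 3.93 and its relative Id1, also at 3.93.

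Atoh8, a bHLH factor of the atonal family (ENSMUSG00000037621, chromosome 6, 72206177 to 72235577, minus strand), had 18.2, 10.2 and 25.9 CPM in the controls, 93.6, 94.2 and 77.4 with Neurog1 and 125, 121 and 117 with Neurog3 at day 1. The day-13 levels were 129, 86.3 and 102 CPM with Neurog1 and 157, 187 and 194 with Neurog3. Its Neurog3 libraries were above its Neurog1 libraries at both days without overlap, and the 3 day-1 Neurog3 libraries had an SD of 4.25 CPM.

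Cbfa2t3 encodes a co-repressor of the ETO family. Cbfa2t3 (ENSMUSG00000006362, chromosome 8, 122625141 to 122699109, minus strand) was nearly silent in the controls at 0.115, 0.119 and 0.336 CPM, 10 counts in all. It had 40.1, 78.2 and 38.3 CPM with Neurog1 and 45.3, 93.4 and 67.9 with Neurog3 at day 1, and 44.8, 64.2 and 67.8 with Neurog1 and 66.3, 129 and 91.0 with Neurog3 at day 13. Among members with more than 3 control counts, its fold over the control mean plus 0.5 CPM was highest in all 4 factor groups. An example is 138 with Neurog3 at day 13. Its control mean, 0.19 CPM, is below the 0.5 CPM added, so these folds rest mostly on that addition. Library b was the highest in 3 of the 4 factor groups. Pknox2, a TALE homeobox factor (ENSMUSG00000035934, chromosome 9, 36890982 to 37147407, minus strand), had 8.56, 7.15 and 8.40 CPM in the controls. It had 88.8, 80.0 and 48.8 with Neurog1 and 95.4, 106 and 63.5 with Neurog3 at day 1, then 102, 99.7 and 77.5 with Neurog1 and 118, 149.8 and 110.0 with Neurog3 at day 13. At day 1 the factors overlapped and library c was lowest with each, while at day 13 all 3 Neurog3 libraries were above all 3 Neurog1 libraries.

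Btbd17, a BTB-domain gene for which no role is assigned here, had almost no control signal. Btbd17 (ENSMUSG00000000202, chromosome 11, 114791217 to 114795945, minus strand) had 2 counts over the 3 control libraries, at 0, 0.0596 and 0.0560 CPM. It had 35.8, 65.8 and 34.2 CPM with Neurog1 and 35.4, 56.2 and 36.7 with Neurog3 at day 1, and 30.3, 47.5 and 90.8 with Neurog1 and 51.1, 55.8 and 54.5 with Neurog3 at day 13. The factors overlapped at each day, and no fold is given because so few control counts set it. Rnf112, with 3 control counts, and Gm11549, with 1, are likewise given by level only: day-1 means of 10.2 ± 7.97 and 13.1 ± 13.4 CPM (SD, n = 3) for Rnf112 with Neurog1 and Neurog3, and 6.85 ± 2.61 and 5.15 ± 2.97 CPM for Gm11549.

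**Figure D2:**
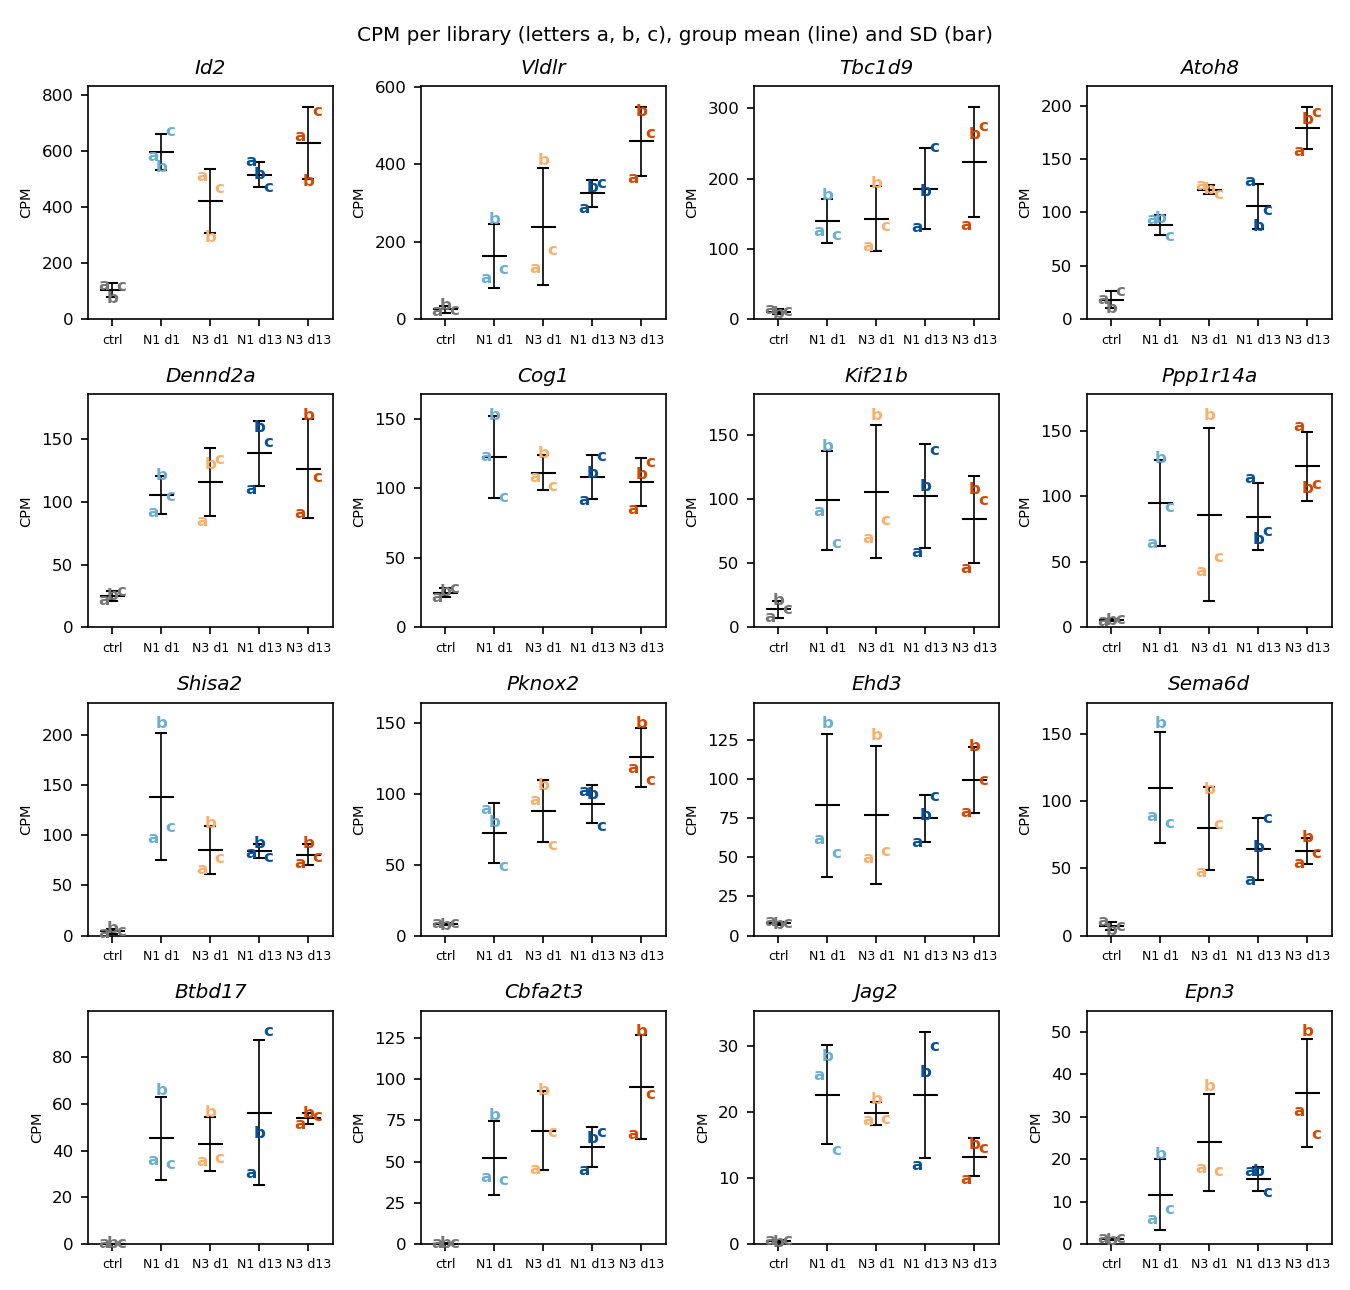
CPM on linear axes from 0 for 16 members, with letters a to c marking the libraries, a line for the group mean and a bar for the SD (n = 3). Every factor library of these 16 lies above the controls, as for Atoh8, whose controls end at 25.9 CPM and whose lowest factor library has 77.4.

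Of the ligands, secreted proteins and their modulators, Jag2 encodes a Notch ligand that signals to neighbouring cells. Jag2 (ENSMUSG00000002799, chromosome 12, 112907819 to 112929776, minus strand) had 0.517, 0.238 and 0.504 CPM in the controls, 25.5, 28.3 and 14.1 with Neurog1 and 18.7, 21.8 and 18.8 with Neurog3 at day 1. At day 13 it had 11.9, 26.0 and 30 CPM with Neurog1 and 9.80, 15.1 and 14.5 with Neurog3. The factors overlapped at both days, library a being the lowest at day 13 with each.

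Sema6d encodes a transmembrane semaphorin used in axon guidance. Sema6d (ENSMUSG00000027200, chromosome 2, 124089969 to 124667770, plus strand) had 10.2, 3.93 and 7.17 CPM in the controls, 88.8, 158 and 83.7 with Neurog1 and 47.3, 109 and 83.0 with Neurog3 at day 1. It had 41.2, 65.2 and 87.2 CPM with Neurog1 and 53.8, 73.1 and 61.3 with Neurog3 at day 13, below the day-1 mean with each factor. Shisa2, which encodes an endoplasmic reticulum protein that holds back Wnt and FGF receptors (ENSMUSG00000044461, chromosome 14, 59625308 to 59631660, plus strand), had 2.41, 6.97 and 3.81 CPM in the controls, 96.3, 211 and 108 with Neurog1 and 65.8, 112 and 77.0 with Neurog3 at day 1. Its day-13 levels were 82.2, 91.3 and 77.9 CPM with Neurog1 and 72.0, 91.8 and 78.0 with Neurog3. Library b was the highest of Shisa2 in all 4 factor groups, and the day-13 groups nearly coincided.

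Rgma, a repulsive guidance cue and BMP co-receptor, had means of 55.2 ± 15.9 and 49.2 ± 12.3 CPM at day 1 and 33.8 ± 6.79 and 25.7 ± 10.5 at day 13 (Neurog1 before Neurog3, SD, n = 3). Gdnf, a neurotrophic factor, had 11.9 ± 3.57 and 14.5 ± 5.33 CPM at day 1 and 15.1 ± 4.20 and 13.1 ± 3.47 at day 13, against 1.94 ± 0.231 in the controls. Notum, an enzyme that inactivates Wnt ligands, had 27.1 ± 7.62 and 41.2 ± 14.8 CPM at day 1 and 14.2 ± 3.24 and 36.0 ± 14.9 at day 13. By these means Rgma was lower at day 13 with both factors and Gdnf had SDs that overlapped between days. All 3 day-13 Neurog1 libraries of Notum were below its day-1 ones. Il33, an alarmin cytokine, Fjx1, a homologue of the Drosophila four-jointed kinase, and Ankrd6, a Wnt and planar polarity adaptor, completed the 9. Of the 9, the day-13 mean was below the day-1 mean with both factors in 5, above it with both in 1 and split in 3.

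Genes of synapses, adhesion, membrane traffic and neurites made up 16 members. Tbc1d9, which carries a Rab GTPase-activating domain (ENSMUSG00000031709, chromosome 8, 83165352 to 83272934, plus strand), had 13.9, 7.45 and 10.5 CPM in the controls, 124, 176 and 119 with Neurog1 and 103, 194 and 132 with Neurog3 at day 1. It had 129.9, 182 and 245 CPM with Neurog1 and 133, 263 and 274 with Neurog3 at day 13. Library b led at day 1 and library c at day 13 with each factor, and the factors overlapped. Dennd2a, a Rab exchange factor (ENSMUSG00000038456, chromosome 6, 39462378 to 39557867, minus strand), had 21.1, 25.8 and 28.5 CPM in the controls, 91.4, 121 and 104 with Neurog1 and 84.5, 129.8 and 134 with Neurog3 at day 1. It then had 109.7, 159 and 147 CPM with Neurog1 and 90.9, 169 and 119 with Neurog3 at day 13. The factors overlapped for Dennd2a at both days, with library a lowest in every factor group.

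Cog1 encodes a subunit of the Golgi tethering complex COG. Cog1 (ENSMUSG00000018661, chromosome 11, 113649169 to 113667054, plus strand) had 21.7, 25.6 and 27.8 CPM in the controls, 122, 152 and 93.2 with Neurog1 and 107, 125 and 101 with Neurog3 at day 1. It had 91.2, 111 and 123 CPM with Neurog1 and 84.8, 110.1 and 118 with Neurog3 at day 13. Its 4 factor groups overlapped throughout. Cog1 shares 1116 exonic bases with Fam104a on the opposite strand, which had 18091 counts to its 23737, and since the strand setting of the counting is not given, reads there cannot be assigned.

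Kif21b encodes a neuronal kinesin. Kif21b (ENSMUSG00000041642, chromosome 1, 136131389 to 136177998, plus strand) had 7.59, 20.7 and 13.8 CPM in the controls, 90.2, 141 and 65.8 with Neurog1 and 69.0, 165 and 83.5 with Neurog3 at day 1, then 58.3, 110.2 and 138 with Neurog1 and 45.6, 108 and 99.3 with Neurog3 at day 13. Ehd3, an endosomal recycling ATPase (ENSMUSG00000024065, chromosome 17, 73804134 to 73832094, plus strand), had 8.91, 6.91 and 7.67 CPM in the controls, 61.4, 135 and 52.6 with Neurog1 and 49.0, 128 and 53.7 with Neurog3 at day 1, then 59.1, 76.6 and 88.4 with Neurog1 and 78.3, 121 and 98.6 with Neurog3 at day 13. In both genes library b stood apart at day 1 and library a was the lowest at day 13.

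The group includes synaptic genes. Nlgn1, a postsynaptic adhesion partner of neurexins, had 7.10 ± 2.32 and 5.65 ± 1.39 CPM at day 1 and 11.0 ± 2.49 and 7.91 ± 1.63 at day 13 (Neurog1 before Neurog3, SD, n = 3), from 7 control counts in all. Syndig1, a regulator of AMPA-type glutamate receptors, had 43.3 ± 8.79 and 55.6 ± 12 CPM at day 1 and 43.0 ± 5.74 and 67.9 ± 10.3 at day 13. Homer2, a postsynaptic scaffold, had 41.2 ± 16.6 and 44.5 ± 19.7 CPM at day 1 and 69.6 ± 6.04 and 87.2 ± 20.6 at day 13. Homer2 had the higher day-13 mean with both factors, as did Nlgn1. Grip1, a glutamate receptor scaffold, and Syt7, a calcium sensor of exocytosis, were each under 15 CPM in every library. Rab15 (endosomal recycling), Epn3 (an epsin of endocytosis), Tbc1d8 (a further Rab GTPase-activating domain), Pcdh1 (a protocadherin), Cnrip1 (a cannabinoid receptor binding protein) and Nexmif (neurite extension) completed the group. Tbc1d8 overlaps the far more abundant Rpl31 over 420 exonic bases on the opposite strand, with 145351 counts for Rpl31 and 6854 for Tbc1d8, so its level is uncertain. Of the 16, the day-13 mean was above the day-1 mean with both factors in 8, below it in 3 and split in 5.

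Receptors and enzymes numbered 11. Vldlr encodes the very low density lipoprotein receptor, which also receives reelin. Vldlr (ENSMUSG00000024924, chromosome 19, 27216484 to 27254231, plus strand) had 19.3, 34.8 and 21.9 CPM in the controls, 106, 258 and 128 with Neurog1 and 130.4, 411 and 176 with Neurog3 at day 1. It had 286, 340.4 and 349 CPM with Neurog1 and 362, 535 and 479.7 with Neurog3 at day 13. At day 13 the Neurog3 libraries were above the Neurog1 libraries, and at day 1 library b was far above the others with each factor. Vldlr was nearest to the upper ratio limit, at 1.98 with Neurog1, with Acsl6 at 1.98 behind it and Fgd4 (2.10) and Ptprt (2.13) just outside.

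Hpse, the enzyme that cleaves heparan sulfate, had 46.4 ± 27.6 and 74.5 ± 62.9 CPM at day 1 and 67.4 ± 27.5 and 115 ± 69.6 at day 13, against 3.19 ± 0.524 in the controls (Neurog1 before Neurog3, SD, n = 3). Chst15, a chondroitin sulfotransferase, had 65.0 ± 31.2 and 71.8 ± 23.2 CPM at day 1 and 67.6 ± 15.3 and 63.5 ± 16.5 at day 13. Steap4, a metalloreductase, had 3.2, 62.5 and 4.12 CPM with Neurog1 at day 1, so that library b alone carried the mean, and without that library Steap4 did not meet the rule. Adamts4 (a matrix protease), Ptprj (a receptor tyrosine phosphatase), Trhde (which degrades thyrotropin-releasing hormone), Arsj (an arylsulfatase), Acsl6 (an acyl-CoA synthetase of brain), Abcg1 (a sterol exporter) and Aldh1b1 (a mitochondrial aldehyde dehydrogenase) completed the 11.

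Intracellular signalling genes numbered 7. Ppp1r14a encodes an inhibitor of myosin phosphatase. Ppp1r14a (ENSMUSG00000037166, chromosome 7, 29289308 to 29293801, plus strand) had 4.43, 5.66 and 5.93 CPM in the controls, 64.1, 129 and 91.3 with Neurog1 and 42.5, 162 and 53.4 with Neurog3 at day 1. It had 114, 67.1 and 72.9 CPM with Neurog1 and 153, 106 and 109 with Neurog3 at day 13. Library b was the highest at day 1 and the lowest at day 13 with each factor. Irs2, an insulin receptor adaptor, Plekhg1, a pleckstrin homology domain protein, Rnf152 and Rnf112, RING-finger proteins, Cdk20, a kinase, and Trp53i11, a p53-induced gene, were the others. Plekhg1 had 39.9 ± 23.8 and 40.4 ± 24.3 CPM at day 1 and 60.9 ± 8.71 and 62.9 ± 6.42 at day 13. Cdk20 and Rgma were nearest to the lower ratio limit, both at 0.521 with Neurog3, and Grasp (0.478) and Slc27a3 (0.467) lay just outside it. Gm11549 (5.15 CPM) and Nlgn1 (5.65 CPM) were nearest to the 5 CPM floor, with A730056A06Rik (3.26 CPM) and Lingo3 (2.93 CPM) under it. Besides Btbd17 and Gm11549, no role was assigned to Apol9a, Apol9b, Fam78b, Ankrd33b and 6430548M08Rik. The grouping by role was made with the values known and carries no test.

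Within the range that the rule set, the ratio of the day-13 to the day-1 mean had a median of 1.13 with Neurog1 and 1.08 with Neurog3. It was above 1 in 31 and 29 members, with both factors in 22, below 1 with both in 16, and split in 16. These ratios, and the counts by role above, rest on library totals. The TMM-scaled library sizes of the edgeR fits were below the totals in every day-1 library and above them in every day-13 library. On those sizes every ratio would be lower, and the counts above and below 1 were not redone. A median near 1 is fixed by the rule, which kept only ratios in that range. Of the 4 transcriptional regulators 3 had the higher day-13 mean with both factors and Id2 was split. At day 13 the cultures also differed in markers: the summed level of 20 fibroblast markers was 24600 to 56700 CPM at day 13 against 5000 to 8580 at day 1 and 6330 to 10100 in the controls, and that of 18 neuron markers was 1170 to 2780 against 236 to 340 and 232 to 262. Such sums weigh abundant genes most. Against the controls at day 13, 11 of the 20 fibroblast markers rose and 3 fell with Neurog1, and 12 rose and 4 fell with Neurog3 (edgeR). Of the 18 neuron markers 17 rose and 0 fell with Neurog1, and 15 rose and 1 fell with Neurog3. Of all genes 32.6% rose and 26.8% fell with Neurog1, and 31.2% and 26.4% with Neurog3. No marker of either list was at 0 over a whole group. The part of these markers in the members' day-13 levels was not tested.

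**Figure D3:**
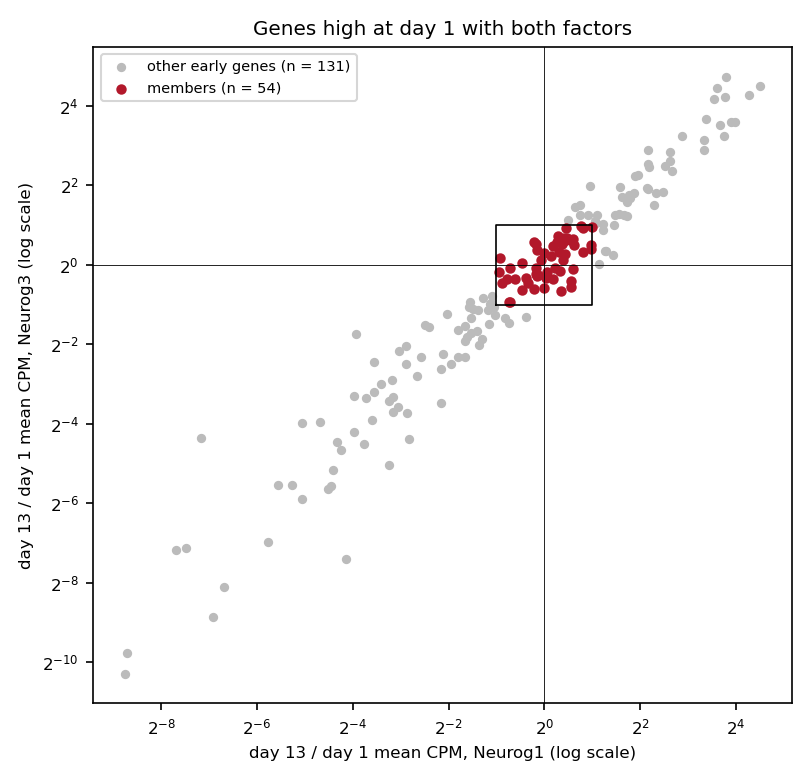
Each point is 1 of the 185 genes that met the day-1 condition, placed by its ratio of day-13 to day-1 mean CPM with Neurog1 and with Neurog3 on log axes, and the box is the rule's range. The 54 members fill the box, and the 131 others lie outside it, 68 of them below 0.5 with both factors.

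In the factor groups the members varied more between libraries of 1 group than genes did in general, which is given as a description. A single high day-1 library raises the mean that the rule uses, so part of this spread can come from the choice of members. Their median coefficient of variation was 36.0% with Neurog1 and 35.4% with Neurog3 at day 1, against 16.4% and 17.9% over all genes with a group mean of at least 5 CPM. At day 13 it was 25.6% and 22.8% against 19.0% and 20.6%. In the controls it was 30.1%, which is not set against other genes because the members' control means, with a median of 4.01 CPM, lie mostly under that 5 CPM floor.

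At day 1 the spread had a direction. Summed over the members, libraries a to c had 2663.6, 3931.5 and 2603.3 CPM with Neurog1 and 2492, 3973.2 and 2745.2 with Neurog3. Library b was thus the highest with each factor. It was also the highest for 43 of 54 members with Neurog1 and 40 with Neurog3, and for 38 (70.4%) with both, against 30.6% of 10037 other genes. The median ratio of library b to the mean of a and c was 1.64 with Neurog1 and 1.63 with Neurog3 over the members, and 1.05 and 1.06 over other genes. The rule chose members on these day-1 means, so a high library b could bring a gene in. Part of the difference from other genes, which were not chosen this way, can thus come from the rule. The delivered factor itself had 1853, 3699 and 971 CPM in the Neurog1 libraries and 1260, 2999 and 1245 in the Neurog3 libraries, highest in b with each. These are reads of the viral and the endogenous transcript together.

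The same held in part at day 13. The members summed to 2890.7, 3239.5 and 3588.7 CPM with Neurog1 and 3263.9, 3989.6 and 4122.1 with Neurog3, and library a was the lowest with each. It was the lowest for 34 and 37 members, and for 31 (57.4%) with both factors, against 24.2% of the other genes. The rule used the day-13 means too, and the other genes were not chosen this way. Part of this difference can thus also come from the rule. The delivered factor had 1337, 3492 and 4912 CPM with Neurog1 and 1360, 5684 and 6073 with Neurog3, again lowest in a. Fibroblast markers were lowest in c at day 13, with 55800, 51400 and 24600 CPM for Neurog1 and 33900, 56700 and 26000 for Neurog3. Neuron markers had 1320, 2650 and 2780 CPM with Neurog1, lowest in a, and 1440, 1690 and 1170 with Neurog3, lowest in c. Since each letter comes with its own factor level, the level of the factor and anything else that the letter stands for cannot be told apart.

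Some members did not follow library b at day 1. Id2, Cdk20, Syt7, Il33 and Ankrd6 were lowest in library b with both factors. Fam78b, Pcdh1, Syndig1 and Nexmif were not highest there with either factor. Id2 is the clearest case by level: with Neurog3 library b had 291 CPM between neighbours of 508 and 465. Of these 9, Pcdh1 had 24.1, 20.6 and 11.0 CPM with Neurog1 against 0.824 ± 0.301 in the controls.

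The rule itself depended on library b at day 1. Without the b library of Neurog1 it gave 42 genes, 37 of them members, and without that of Neurog3 40 genes, 39 of them members. Without both, an alternative added after the data were seen, it gave 37 genes, 31 of them members. Leaving out each library in turn, 19 members stayed under every omission and 35 dropped out at least once.

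**Figure D4:**
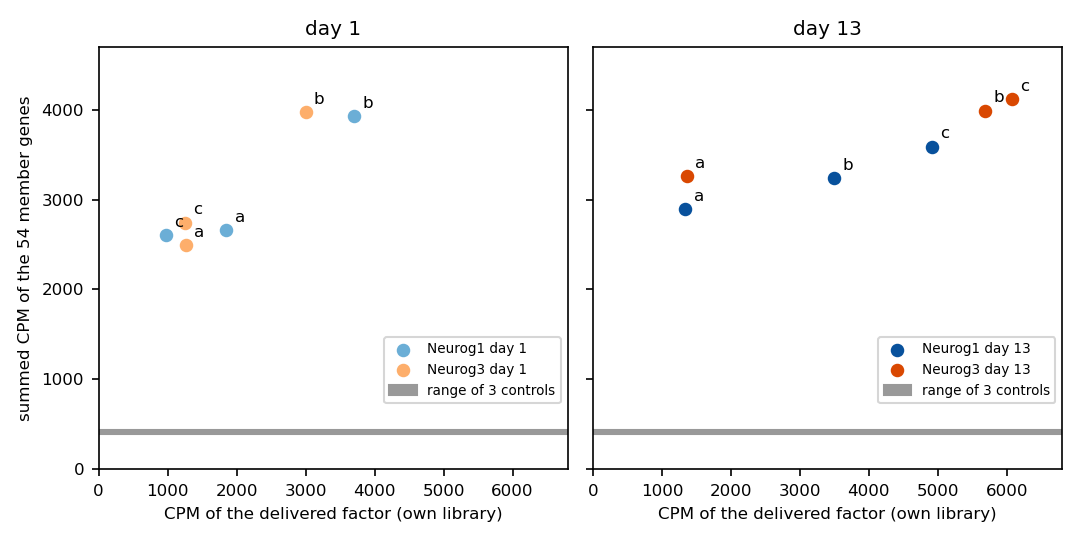
The summed CPM of the 54 members is plotted against the CPM of the delivered factor for each library at day 1 and day 13, with letters for the replicates and a grey band for the 3 controls. The day-1 libraries of letter b (3931.5 and 3973.2 CPM) stand apart from the other 4, and at day 13 the 2 libraries of letter a have the lowest factor level and the lowest sum of their groups.

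Whether the members differed between Neurog3 and Neurog1 was tested with edgeR's quasi-likelihood test over 16872 genes, all 54 members among them. At day 1 no member was called at an adjusted p under 0.05, where 0.00593% of all genes were higher and 0.00593% lower with Neurog3. At day 13 no member was called either, where 0.00593% of genes were higher and 0.0178% lower. DESeq2 called 0 members at each day. At an unadjusted p under 0.05 by edgeR there were 4 members at day 1, 1 higher and 3 lower with Neurog3, where 1.7% of all genes passed, and 9 at day 13, 6 higher and 3 lower, where 5.54% passed. The smallest adjusted p of a member was 1 at day 1 and 0.512 at day 13 (edgeR). The median log2 difference of Neurog3 from Neurog1 over the members was -0.02 at day 1 and -0.05 at day 13, and over all genes tested it was 0.00 and -0.01. These values all leave out the replicate letter, although same-lettered libraries deviated together. With the letter as a block within the day, edgeR called 0 members at day 1 and 1 (Epn3) at day 13. The share of all genes called with the block is not given here.

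The intervals, from the fit without the letter block, show what size of difference these data leave. At day 1 the 95% interval of the log2 difference lay within -1 to 1 for 25 members and reached beyond -2 or 2 for 1, and at day 13 for 19 and 5. The fitted log2 differences ran from -1.0 (Fam78b) to 1.01 (Epn3) at day 1 and from -0.76 (Jag2) to 1.32 (Notum) at day 13. For Cog1 the interval was -0.56 to 0.20 at day 1 and -0.43 to 0.33 at day 13, among the narrowest. For Steap4 it was -1.54 to 2.77 and -1.28 to 3.03, the widest at each day.

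**Figure D5:**
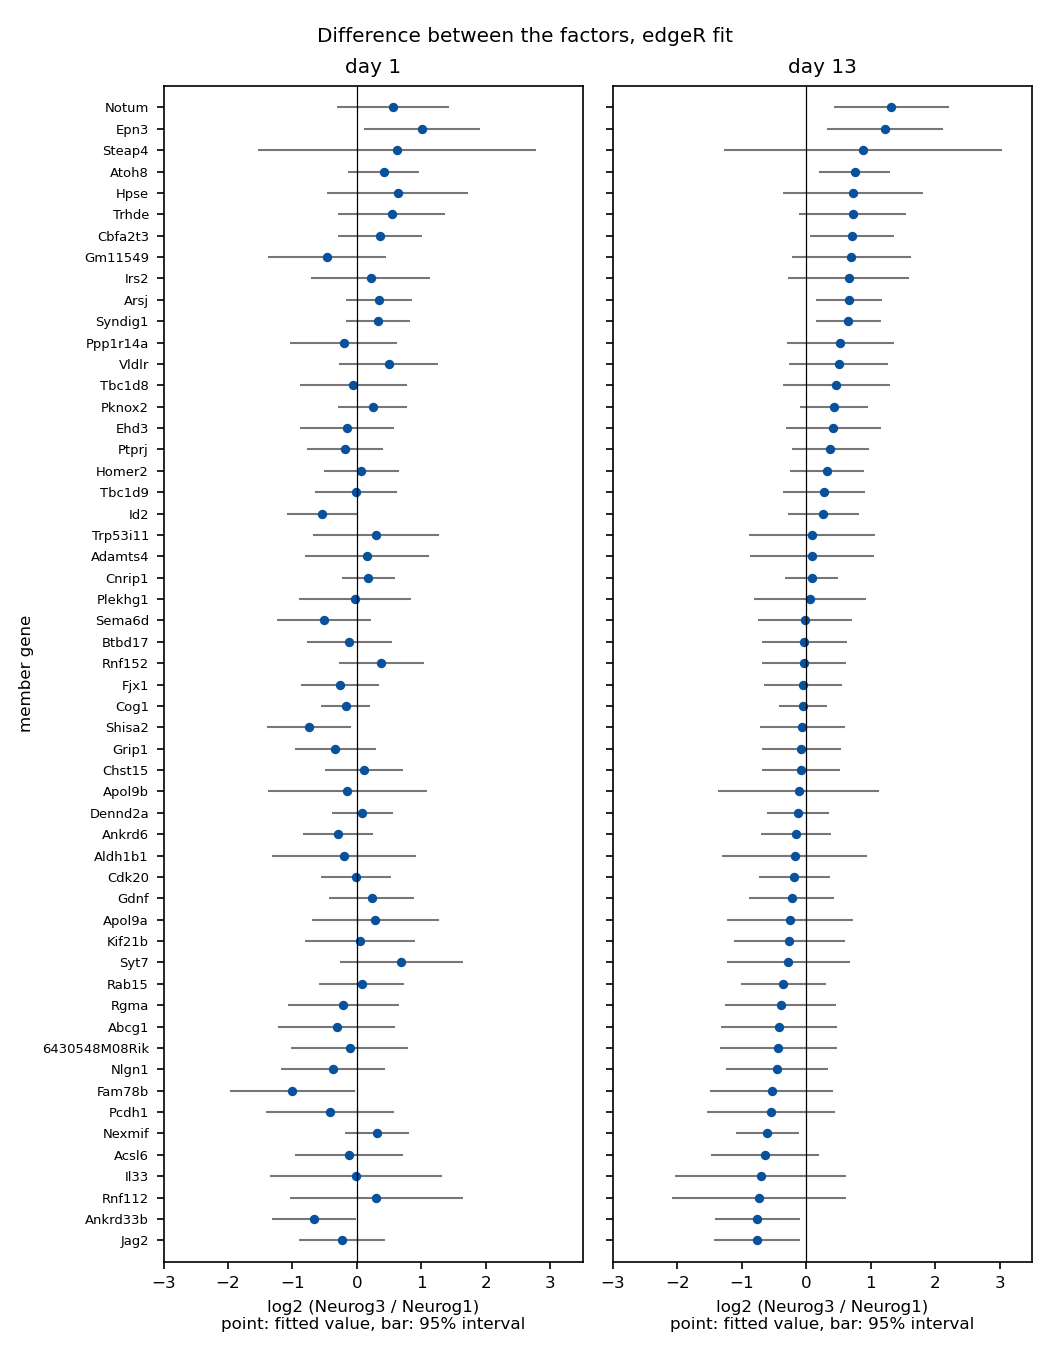
Points are edgeR's log2 differences, Neurog3 over Neurog1, at day 1 and day 13 for the 54 members, sorted by day 13, and bars are 95% intervals before any adjustment for the number of genes. Most bars cross 0, and Notum (1.32) and Epn3 (1.21) lie farthest to the right at day 13.

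Epn3, an endocytic adaptor, came nearest to a call. Epn3 (ENSMUSG00000010080, chromosome 11, 94489599 to 94499974, minus strand) had 1.32, 0.834 and 1.23 CPM in the controls, 5.75, 21.1 and 8.01 with Neurog1 and 17.8, 37.2 and 17.1 with Neurog3 at day 1. It had 17.0, 17.0 and 12 CPM with Neurog1 and 31.3, 50 and 25.7 with Neurog3 at day 13. Each Neurog3 library was above the Neurog1 library of its letter at both days, and at day 13 the groups did not overlap. The log2 difference at day 13 was 1.21 ± 0.42 (SE) with an adjusted p of 0.607 by edgeR, and with the replicate letter as a block within the day it was 1.17 with an adjusted p of 0.0285, which is a call. The share of all genes called with the block is not given here, so this call cannot be set against it. Notum had the lowest adjusted p without the block, 0.512 for a log2 difference of 1.32 ± 0.42 (edgeR), and 0.114 with it.

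Without overlap at day 1, 2 members (Atoh8 and Nexmif) had every Neurog3 library above every Neurog1 library and 2 (Id2 and Ankrd33b) every one below, where 2.76% and 2.03% of all genes tested did. At day 13 there were 8 above (Epn3, Notum, Vldlr, Syndig1, Arsj, Steap4, Atoh8 and Pknox2), where 3.34% of genes were, and 3 below (Cdk20, Ankrd33b and Abcg1), where 5.02% were. Atoh8 was on the higher side and Ankrd33b on the lower side at both days. For Atoh8 the log2 difference was 0.42 (95% interval -0.13 to 0.97) at day 1 and 0.75 (0.20 to 1.30) at day 13, with adjusted p-values of 1 and 0.605 (edgeR). The fitted sign was higher with Neurog3 at both days in 16 members, lower at both in 20, and opposite in 18, of which Id2 was 1 (-0.54 and 0.26) and Nexmif another (0.31 and -0.61).

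The rest of the pathway was read from a list of proneural programme genes and a list of Notch pathway genes. Atoh8, Cbfa2t3 and Btbd17 are members in the first, and Jag2 is the member in the second. The lists' other genes, which the rule did not pick, were tested against the controls with edgeR. Both lists were made with earlier results of these data known, so the counts below are not independent of these data. All 4 comparisons share the control libraries. Of 33 other proneural genes tested, at day 1 10 rose and 1 fell with Neurog1, where 6.78% of all genes were higher and 5.42% lower, and 10 rose and 1 fell with Neurog3, where the shares were 7.19% and 5.59%. The median log2 fold of these 33 was 1.09 and 0.96, against 0.02 and 0.02 over all genes. At day 13, 29 rose and 0 fell with Neurog1 (32.6% and 26.8% of all genes), and 27 rose and 1 fell with Neurog3 (31.2% and 26.4%), with medians of 4.24 and 3.18 against 0.10 and 0.10. With the 5 genes at 0 control counts set to their bound against 3 counts over the control group, the medians were 0.76 and 0.85 at day 1 and the same at day 13. For the 0 that fell with Neurog1 at day 13 by edgeR, 1 was lower at an unadjusted p under 0.05 and 1 was called lower by DESeq2.

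Cbfa2t2, the paralogue of Cbfa2t3, rose from 31.6 ± 1.90 CPM in the controls to 68.7 ± 21.2 with Neurog1 and 64.6 ± 11.1 with Neurog3 at day 1, with log2 folds of 1.09 ± 0.24 and 0.96 ± 0.24 (SE) and adjusted p-values of 0.00597 and 0.013 (edgeR). It stood at 119 ± 44.6 and 110.7 ± 18.2 CPM at day 13, where the Cbfa2t3 means were 59.0 ± 12.4 and 95.4 ± 31.5. Ebf3, a neuronal factor of the Ebf family, rose in each comparison, from a control level of 27.6 ± 4.59 CPM to 65.8 ± 11.6 and 92.1 ± 2.44 on day 1 and 231 ± 37.4 and 274 ± 39.8 on day 13. Bhlhe22, a neuronal bHLH repressor, had 22.3 ± 15.1 and 13.1 ± 8.01 CPM at day 1 and 309 ± 87.2 and 347 ± 57.2 at day 13, from 2.74 ± 1.49. By their means, Ebf3 and Bhlhe22 were over 2 times as high at day 13 as at day 1, outside the range that defines the members.

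Of 27 other Notch pathway genes tested at day 1, 5 rose and 1 fell with Neurog1, where 6.78% of all genes were higher and 5.42% lower, and 6 rose and 3 fell with Neurog3, where the shares were 7.19% and 5.59%. At day 13, 17 rose and 2 fell with Neurog1 (32.6% and 26.8% of all genes), and 18 rose and 3 fell with Neurog3 (31.2% and 26.4%). Their median log2 folds were 0.36 and 0.43 at day 1, against 0.02 and 0.02 over all genes, and 1.20 and 1.17 at day 13, against 0.10 and 0.10. Notch2, a receptor, rose from 25.9 ± 1.02 CPM to 88.1 ± 22.6 and 98.6 ± 26.9 at day 1 and stood at 79.1 ± 24.8 and 72.1 ± 38.0 at day 13. Heyl, a bHLH repressor downstream of Notch, rose from a control level of 0.290 ± 0.213 CPM to 98.1 ± 42.1 and 112 ± 62.8 on day 1 and had 8.28 ± 3.43 and 20.6 ± 2.98 on day 13. Numbl, an adaptor that restrains Notch, had 59.7 ± 13.7, then 112 ± 31.9 and 107 ± 42.0, then 169 ± 24.4 and 140.6 ± 14.7 CPM. Maml2, a co-activator of Notch targets, fell at day 1 from 18.4 ± 5.02 to 6.76 ± 1.02 and 9.61 ± 0.330 CPM. By their means Heyl was lower and Numbl higher at day 13 than at day 1, which was not tested. Few list genes fell, and these counts rest on single libraries. Over both lists, the 2 that fell with Neurog1 at day 1 became 1 without control c or without Neurog1 day-1 library a or b, and 4 without Neurog1 day-13 library a. The 4 that fell with Neurog3 became 0 without Neurog3 day-1 library b, 1 without control c or Neurog3 day-1 library a, and 2 without control a, control b or Neurog3 day-1 library c.

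The libraries held 14869015 to 17859844 counts. The 13 macrophage markers summed to 146 to 236 CPM in the controls, 38.9 to 81.7 at day 1 and 23.5 to 342 at day 13, and the 11 endothelial markers to 19.7 to 51.0, 7.88 to 14.2 and 17.8 to 26.5. The 18 skeletal muscle markers summed to 131 to 183, 38.1 to 54 and 63.4 to 262 CPM, and the 15 glial and neural crest markers to 14.3 to 20.3, 17.3 to 26.9 and 17.3 to 28.9. Defining genes of these types at 0 over a whole group were Cldn5, Tie1, Ckm, Myf5, Myf6, Tnnc2, Olig1, Olig2 and Aqp4 in at least 1 group each. The macrophage, endothelial and muscle sums were lower at day 1 than in the controls, without overlap. Of the 6 endothelial markers tested at day 1, 1 rose and 3 fell with each factor. Of all genes, 6.78% rose and 5.42% fell with Neurog1, and 7.19% and 5.59% with Neurog3. Cdh5 rose from 0.0565 ± 0.056 to 2.32 ± 1.49 CPM with Neurog1 (adjusted p = 0.00453, edgeR), and Kdr had 15.6 ± 20.2 CPM in the controls. Most of the macrophage sum in the controls was Lyz2, at 129.8 ± 42.4 CPM, while Itgam of the same list rose from 1.995 ± 0.316 to 8.48 ± 1.44 and 8.78 ± 2.08 CPM at day 1 (adjusted p = 0.000676 and 0.00068, edgeR). The part of these markers in the members' levels was not tested.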

How the data were processed

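PolyA RNA libraries (TRIzol, NEBNext Ultra, per the labels) were counted per gene. The deposited values are raw counts, made by the authors with CASAVA, HISAT2 and featureCounts on mm10 per the submitters' processing notes, with versions, annotation and strand setting not given. Without strand, overlapping genes cannot be separated. GENCODE M21 named 42462 of 43432 gene IDs, and coordinates are from it. CPM were computed here from library totals. Factors were compared with edgeR 4.0.16 (R 4.3.3) quasi-likelihood tests, TMM scaling, 1 mean per group over 15 libraries, edgeR's expression filter (16872 genes) and Benjamini-Hochberg adjustment, called at 0.05. The test was checked on simulated counts. Same-lettered Neurog1 and Neurog3 libraries deviated together at day 1 (r 0.325 to 0.539) and day 13 (0.521 to 0.58), though no label says what a letter stands for. The main test and its intervals left this pairing out, and the block by letter was an alternative. DESeq2 1.42.0, other scalings, no filter, replicate blocks and omissions were alternatives. Members and lists were chosen with earlier results of these data known. Per-library values are given for the 12 members of highest mean factor-group CPM, those in the proneural or Notch lists, and Epn3. Other members and list genes are named by role or level. Promoter windows are RefSeq's.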

Additional observations from a re-analysis of the deposited data

How the results depend on the processing

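The counts of members higher or lower with Neurog3 stayed at 0 under all alternatives, omissions and the fits without 2 doubted libraries included, with 1 exception. The replicate block within day called 1 member (Epn3) as higher at day 13, with no share of all genes beside it, and it changed no other member's call. Epn3's log2 difference ran from 0.86 to 1.43 with libraries left out. The rule gave 103 genes at 3-fold over control and 32 at 6-fold. It gave 42 to 53 with other scalings, group medians or a 10 CPM floor, and 40 to 58 with 1 library left out. These totals hide changes in which genes were chosen. Group medians gave 42 genes, of which 33 were members. Of the 53 genes on TMM-scaled library sizes 46 were members, and of the 51 on DESeq2's size factors 46 were. All 45 with the 10 CPM floor were members. With 1 library left out, 37 to 53 of the genes were members. Counts of other proneural and Notch genes that rose kept within 1.5 times. The few that fell did not. For Neurog1 at day 1 (2) there were 4 without a low-count filter, 4 by DESeq2, 1 without both day-1 libraries of letter b, and 1 to 4 with 1 library left out. For Neurog3 at day 1 (4) there were 0 without both b libraries and 0 to 4 with 1 library left out, the 0 without Neurog3 library b. With library totals alone there was 1 for Neurog1 at day 13 (2) and 1 for Neurog3 (4). The cause of these shifts was not tested. With 3 libraries a group, log2 differences had 95% intervals that reached a median of 0.75 to either side at each day, and a difference that was not called does not show that the factors act alike.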
